A study of Mus musculus with 8 samples.

Results

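Heat shock proteins and chaperones were followed in macrophages of the mouse mammary gland, as 10 genes chosen by name: Hspa1a, Hspa1b, Hspa8, Dnajb1, Hsph1, Hsp90aa1, Hsp90ab1, Hspd1, Hspe1 and Hspa5. Each gene was represented by the probe set (a group of array probes for 1 transcript) with the highest mean signal among probe sets mapped to that symbol alone. Probe sets named for 9 of the 10 genes were found, 23 in all, and all 9 genes were among the 13041 genes tested, from 18193 genes with such a probe set. Hsp90ab1 was not analysed here.

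Cells positive for Cd11b, a myeloid surface marker, were sorted from mammary glands of FVB females that were 6 weeks old at the start of treatment, and RNA was hybridised to 8 Affymetrix arrays. The groups were MMTV-iFGFR1 transgenic mice after 4 weeks of dimerizer, control littermates without the transgene after 4 weeks, transgenic mice after 48 hours and control littermates after 48 hours, each with 2 arrays of cells pooled from 3 mice. In the transgenic mice the MMTV promoter drives, in mammary epithelium, a form of FGF receptor 1 that the dimerizer drug activates, so the sorted macrophages are the neighbours of the cells that carry the switch. Control littermates received the drug as well, so no group shows macrophages without it. The labels number the pools 1 and 2 within each group and do not say what arrays with the same number share. One label of the transgenic 4 weeks pool 2 array calls its mice non-transgenic, against the title, source and genotype of the same array, which was used as transgenic.

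Chaperones bind unfolded or newly made proteins and help them fold. Heat, digestion of tissue with enzymes, handling and other damage to proteins release heat shock factor 1 from its chaperones, and it then switches on a small set of cytosolic and mitochondrial chaperone genes within minutes to hours. Unfolded protein inside the endoplasmic reticulum acts through other factors on another set, of which Hspa5 is the best known. In sorted cells these genes are commonly read as a mark of what the cells met before lysis.

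Macrophage markers were looked up first. Csf1r, the receptor for the macrophage growth factor CSF1, had a signal of 68311.3 to 93064.6 on the 8 arrays, and Adgre1, a surface receptor that marks mouse macrophages, 9842.1 to 14627.4. Itgam, which encodes the Cd11b antigen used in the sort, was dim at 46.8 to 545.4. Fibroblast markers were present too, with a summed signal of 38111.7 to 86587.2 for 8 genes. Array medians lay between 96.4 and 126.9. Signals are MAS5 intensities scaled by the authors so that the trimmed mean of each array is 500, and they compare arrays for 1 probe set, not levels of different genes.

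Some of the promoters carry letters read by the factors named above, and stretches of 5 genes are shown here as examples of the heat shock and the endoplasmic reticulum elements. RefSeq promoter windows (GRCm38.p6, 250 bases before to 50 after a start site) were found for 7 of the 10 genes. Capitals mark the fixed letters of a heat shock element in the first 4 stretches and of the endoplasmic reticulum stress element in the last.
Hsph1, chr5:149636337-149636381, minus strand, 45 to 1 bases before the start: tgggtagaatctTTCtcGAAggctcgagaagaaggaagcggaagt
Hspe1, chr1:55088047-55088088, plus strand, 101 to 60 bases before the start: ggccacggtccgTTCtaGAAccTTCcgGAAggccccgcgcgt
Hspa1a, chr17:34972233-34972280, minus strand, 124 to 77 bases before the start: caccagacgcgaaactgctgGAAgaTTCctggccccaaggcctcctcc
Hspa1b, chr17:34959315-34959362, minus strand, 124 to 77 bases before the start: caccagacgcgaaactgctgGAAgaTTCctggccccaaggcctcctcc
Hspa5, chr2:34772013-34772055, plus strand, 77 to 35 bases before the start: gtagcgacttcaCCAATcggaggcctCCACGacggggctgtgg

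Both strands were searched for the heat shock element as GAANNTTC, as TTCNNGAA and as a longer form in which GAANNTTC is followed by NNGAA, so that a match to the longer form is a match to the shorter ones as well. A window of 5 of the 7 genes held GAANNTTC, against 7.86% of all 32851 windows in the table. The longer form stood in a window of 3 genes, Hsph1, Hspe1 and Hspd1, and in 0.603% of all windows. These shares are of windows, and some genes have more than 1. Hspd1 has 2 windows: the one at the annotated 5′ end of the gene held no match, and the other, at a start site inside the gene, held the matches. The Hsph1 stretch shown holds only a match to TTCNNGAA. The matches of that window to GAANNTTC and to the longer form lie after the start site, in bases not shown. That start site lies inside the annotated Hsph1 gene, whose 5′ end is at 149636498, so the stretch shown also lies inside the gene. The Hspe1 window and the Hspd1 window with the matches overlap by 285 bases, since the 2 genes lie head to head on chromosome 1. The matches in these windows are the same letters, so the 2 genes do not count as separate sites. The endoplasmic reticulum stress element, CCAAT and CCACG with 9 bases of any kind between them, was found in Hspa5 and in 0.119% of all windows. Hspa1a and Hspa1b, neighbouring copies on chromosome 17, have the same letters in 296 of 300 window positions, differing by C44T, T47C, T249G and C276T (the Hspa1a base first, positions counted from the 5′ end). The Dnajb1 windows held no match. A match describes letters, and a missing match says only that these letters are not in the window.

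Hsph1 encodes Hsp105, a large relative of Hsp70 that helps Hsp70 release its clients. Its signal was 21482.5 in pool 2 and 7225.1 in pool 1 of the transgenic mice at 4 weeks, and 16961 in pool 2 and 8896.3 in pool 1 of the controls. After 48 hours it was 22651.5 in pool 2 and 6181.2 in pool 1 of the transgenic mice, and 18354.9 in pool 2 and 6243.7 in pool 1 of the controls. All 4 arrays of pool 2 lay above all 4 of pool 1, whatever the genotype or time, while the 2 genotypes overlapped. Hsph1 rose 2.79-fold in pool 2 over pool 1 (log2 difference 1.48, SE 0.16, limma adjusted p = 0.0321, means 19862.5 ± 2652 and 7137 ± 1267, SD, n = 4 each). It had the smallest p of all 13041 genes. Its other probe set differed by 1.45 on the log2 scale (SE 0.20, adjusted p = 0.0544 when every probe set was tested).

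Hspa1a and Hspa1b encode the 2 nearly identical inducible Hsp70 proteins, and array probes may read both transcripts. Hspa1a had a signal of 61627.7 in pool 2 and 41083.7 in pool 1 of the transgenic mice at 4 weeks, against 63375.8 and 54290.1 in the controls. After 48 hours it had 57410.9 in pool 2 and 44342.7 in pool 1 of the transgenic mice, against 63022.5 and 46755.8 in the controls. Every pool 2 array was again above every pool 1 array. The difference was 1.17- to 1.5-fold within groups, with a log2 difference of 0.40 (SE 0.11, limma adjusted p = 0.35), which did not pass the test. Hspa1b, by the probe set used, was more uneven. It had 68700.1 in pool 2 and 37661.2 in pool 1 of the transgenic mice at 4 weeks, against 49562.9 and 61229.4 in the controls, and after 48 hours 70945.3 in pool 2 and 25848.1 in pool 1 of the transgenic mice, against 67716.6 and 42813.3 in the controls. Pool 2 exceeded pool 1 by 1.82-fold and 2.74-fold in the transgenic mice at 4 weeks and 48 hours and by 1.58-fold in the 48-hour controls, but reached only 0.809 of pool 1 in the 4-week controls. Its log2 difference was 0.67 (SE 0.23, limma adjusted p = 0.448), and its other probe sets differed by 0.45 and 0.27. Those probe sets, with means of 51569 and 52068 over all arrays, were higher in pool 2 in all 4 groups. In the 4-week controls they had 59226.9 and 62247.5 in pool 2, against 56674.5 and 52410.6 in pool 1.

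Dnajb1 encodes Hsp40, which delivers clients to Hsp70. Its signal was 42253.2 in pool 2 and 26799.4 in pool 1 of the transgenic mice at 4 weeks, against 38169.7 and 35881.1 in the controls. After 48 hours it was 43025.9 in pool 2 and 23755.4 in pool 1 of the transgenic mice, against 40570.5 and 26990.5 in the controls. The pools did not overlap, and the 4-week controls had the smallest gap, 1.06-fold. The log2 difference was 0.55 (SE 0.14, limma adjusted p = 0.318). Hsp90aa1, the inducible form of cytosolic Hsp90, had means of 40442 ± 3993 in pool 2 and 28614 ± 5746 in pool 1 (SD, n = 4 each), and was higher in pool 2 in 3 of 4 groups, by 1.43- to 1.77-fold. In the 4-week controls its pool 2 signal was 0.970 of that of pool 1.

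Hspd1 and Hspe1 encode Hsp60 and Hsp10, the chamber and lid that fold proteins in the mitochondrial matrix. Hspd1 had a signal of 9857.4 in pool 2 and 5478 in pool 1 of the transgenic mice at 4 weeks, against 5569.7 and 4534.2 in the controls. After 48 hours it had 9677.6 in pool 2 and 5689.1 in pool 1 of the transgenic mice, against 7495.5 and 3816.7 in the controls. It was higher in pool 2 in every group and higher in transgenic than in control mice at every time and pool number, with a pool log2 difference of 0.72 (SE 0.15, limma adjusted p = 0.229). Hspe1 had means of 3054 ± 459 in pool 2 and 2025 ± 427 in pool 1 (SD, n = 4 each), with no overlap of the pools, a range of 1.11- to 2.03-fold over the groups and a log2 difference of 0.60 (SE 0.17, limma adjusted p = 0.371).

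Hspa8 encodes the constitutive Hsc70, made without stress, and Hspa5 encodes BiP, the Hsp70 of the endoplasmic reticulum. Hspa8 had means of 79199 ± 3122 in pool 2 and 73811 ± 8279 in pool 1 (SD, n = 4 each), and its log2 difference was 0.11 (SE 0.11, limma adjusted p = 0.816). Its probe sets did not give 1 answer: a dimmer one, with means of 3394 ± 641 in pool 2 and 1804 ± 280 in pool 1, differed by 0.90 (SE 0.19), while the remaining ones differed by 0.25 and 0.01. Hspa5 had means of 47788 ± 2725 in pool 2 and 49360 ± 4330 in pool 1, and its log2 difference was -0.04 (SE 0.11, limma adjusted p = 0.934). Its within-group SD on the log2 scale, 0.076, was the lowest of the 9 genes, against 1.07 for Hsph1.

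**Figure D1:**
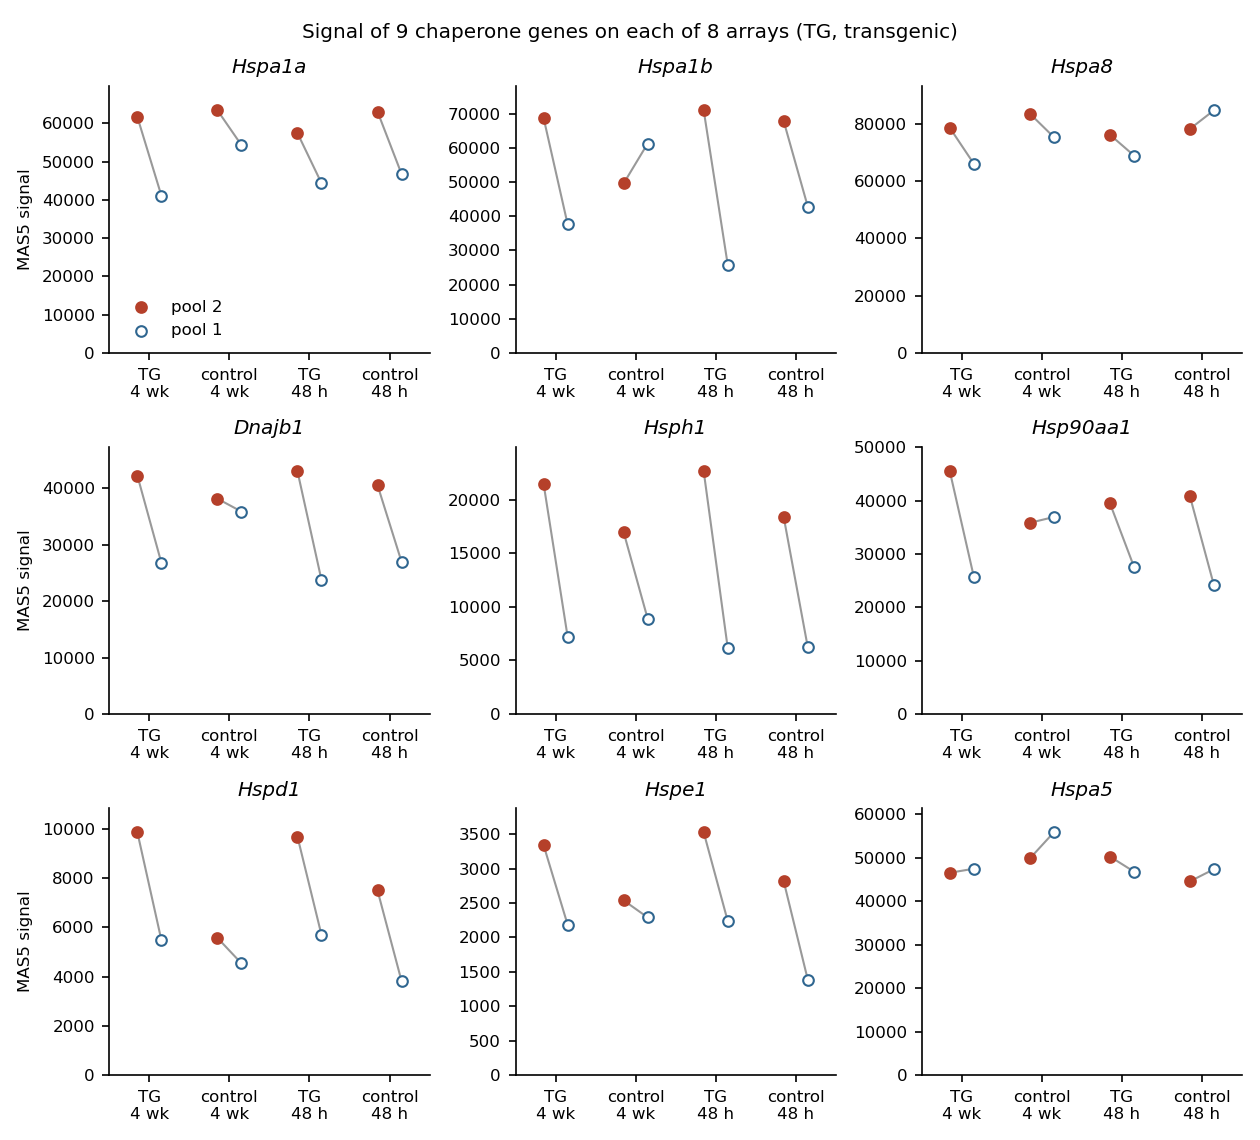
Each panel plots the MAS5 signal of 1 gene (y axis, from 0) on the 8 arrays, by group (x axis), with pool 2 filled, pool 1 open and a line joining the 2 pools of a group. For Hsph1 all filled points lie above all open points, whereas for Hspa5 the pools cross.

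By pool number, the values of most of the 9 genes were higher in pool 2, and the counts were read against all genes. By the limma test with the 4 groups as terms, 1 of the 9 genes, Hsph1, was called higher in pool 2 (adjusted p under 0.05), where 0.0153% of all genes were called; those were Hsph1 and Fabp4. At an unadjusted p under 0.05, 7 of 9 were higher in pool 2, where 4.76% of all genes were. Values of pool 2 lay above all of pool 1 for 4 of 9 genes, Hsph1, Hspa1a, Dnajb1 and Hspe1, against 2.98% of all genes, and pool 2 was higher in all 4 groups for these and Hspd1, against 8.53%. The median log2 difference was 0.55 over the 9 genes and -0.01 over all genes, whose middle 90% ran from -0.61 to 0.64. Of the 13 other probe sets of the 9 genes that were tested, 10 were higher in pool 2. In this fit the p-values set the pool difference against a mixed spread. Part of it is how much that difference varied over the 4 groups (3 residual degrees of freedom). The rest is a variance trend drawn from all genes (6.67 prior degrees of freedom). The 8 arrays limit the precision of these p-values.

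**Figure D2:**
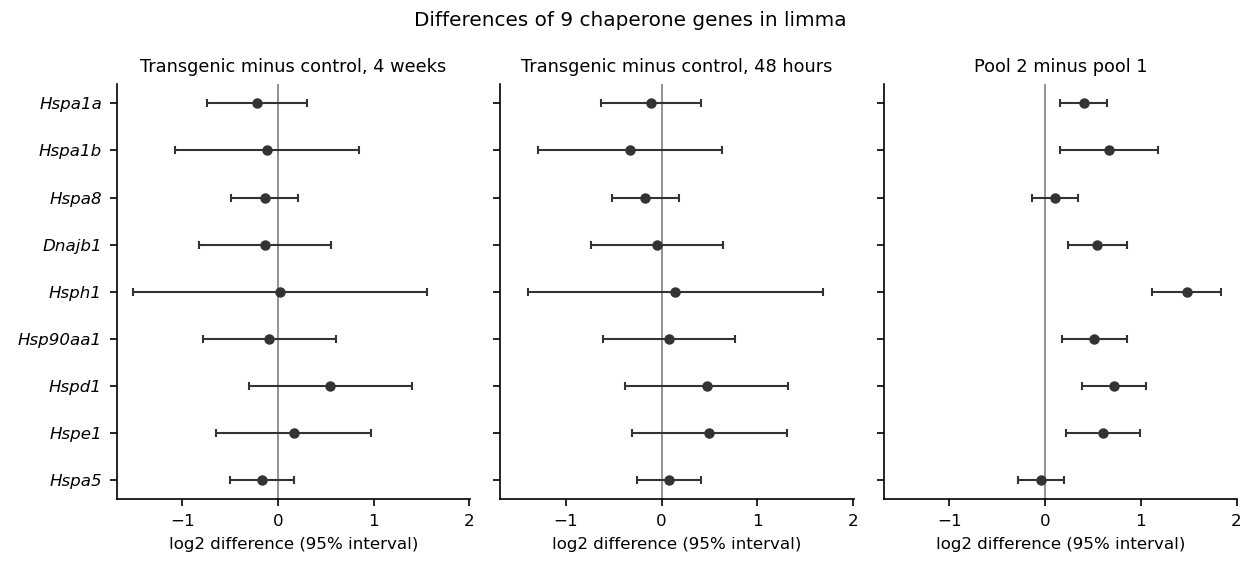
The log2 difference of each gene (x axis) by genotype at 4 weeks, by genotype at 48 hours and by pool number, 1 panel each, is drawn as a point with its 95% confidence interval from limma, 1 row a gene. In the pool comparison the interval of Hsph1 starts at a fold of 2.17, and in the genotype comparisons the intervals of all 9 genes include 0.

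The call of Hsph1 depended on the variance trend, the arrays and the filter. It was called in 8 of 17 alternatives, with log2 differences of 1.35 to 1.73 and adjusted p of 0.00705 to 0.585, the highest of these with no trend in the prior variance. Leaving out either pool removes its group from this comparison: adjusted p was 0.264 and 0.238 without transgenic 4 weeks pool 2 and pool 1, 0.367 and 0.328 without transgenic 48 hours pool 2 and pool 1, and 0.0773 and 0.0784 without control 48 hours pool 2 and pool 1.

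Other genes of protein folding were read by lists. Among 28 measured genes listed as heat shock factors, co-chaperones and other chaperones, 0 were called by limma over all genes. At an unadjusted p under 0.05, 8 were higher and 0 lower in pool 2, with a median log2 difference of 0.17. Hspb1, the small heat shock protein Hsp27, had means of 2143 ± 775 in pool 2 and 878 ± 331 in pool 1 (SD, n = 4 each). Bag3, which links Hsp70 to autophagy, had 2177 ± 290.0 in pool 2 and 1016 ± 362 in pool 1. Cryab, another small heat shock protein, had 572 ± 128 in pool 2 and 287 ± 83.4 in pool 1, and Ahsa2, an activator of the Hsp90 ATPase, 3324 ± 458 in pool 2 and 1815 ± 184 in pool 1. These 4 had the smallest p-values of the list, with limma adjusted p of 0.203 to 0.268, so none passed the test.

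Other folding machines were read in the same way, with no test of a difference between lists. The 8 subunits of the CCT ring, which folds actin and tubulin, had 0 genes called and 0 at an unadjusted p under 0.05 by limma, with a median log2 difference of 0.06. Of 26 chaperones and unfolded protein response genes of the endoplasmic reticulum, 0 were called, 0 were higher and 1 lower at an unadjusted p under 0.05, and the median was -0.04; the lower one was Manf, a secreted stress protein, at 3546 ± 666 in pool 2 and 4709 ± 1324 in pool 1 (SD, n = 4 each). Of 9 mitochondrial chaperones and proteases other than Hspd1 and Hspe1, 0 were called, 1 was higher and 1 lower at an unadjusted p under 0.05, and the median was -0.01. The higher one was Hspa9, the mitochondrial Hsp70, at 5935 ± 583 in pool 2 and 4527 ± 232 in pool 1 with no overlap, and the lower one Clpp, a matrix protease, at 235 ± 165 in pool 2 and 418 ± 61.7 in pool 1.

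Immediate early genes, which are switched on within minutes by tissue dissociation among other stimuli, had lower values in pool 2 for 14 of 18 genes. Of these 18, 0 were called by limma over all genes, and 6 were lower and 0 higher in pool 2 at an unadjusted p under 0.05, against 4.21% of all genes lower, with a median log2 difference of -0.14. Ier2 had 4439 ± 710 in pool 2 and 7820 ± 2328 in pool 1 (SD, n = 4 each), Jun 10644 ± 1931 in pool 2 and 14980 ± 3000.4 in pool 1, and Junb 3928 ± 487 in pool 2 and 5834 ± 996 in pool 1. Their summed signal was 374361 to 408566 in pool 2 and 413633 to 454332 in pool 1, with no overlap. Of 11 genes of the oxidative stress response, 0 were called and 2 were lower at an unadjusted p under 0.05, the metallothioneins Mt1 (12853 ± 3040 in pool 2, 21046 ± 2940 in pool 1) and Mt2 (8416 ± 1240 in pool 2, 12204 ± 1738 in pool 1), which bind zinc and copper.

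**Figure D3:**
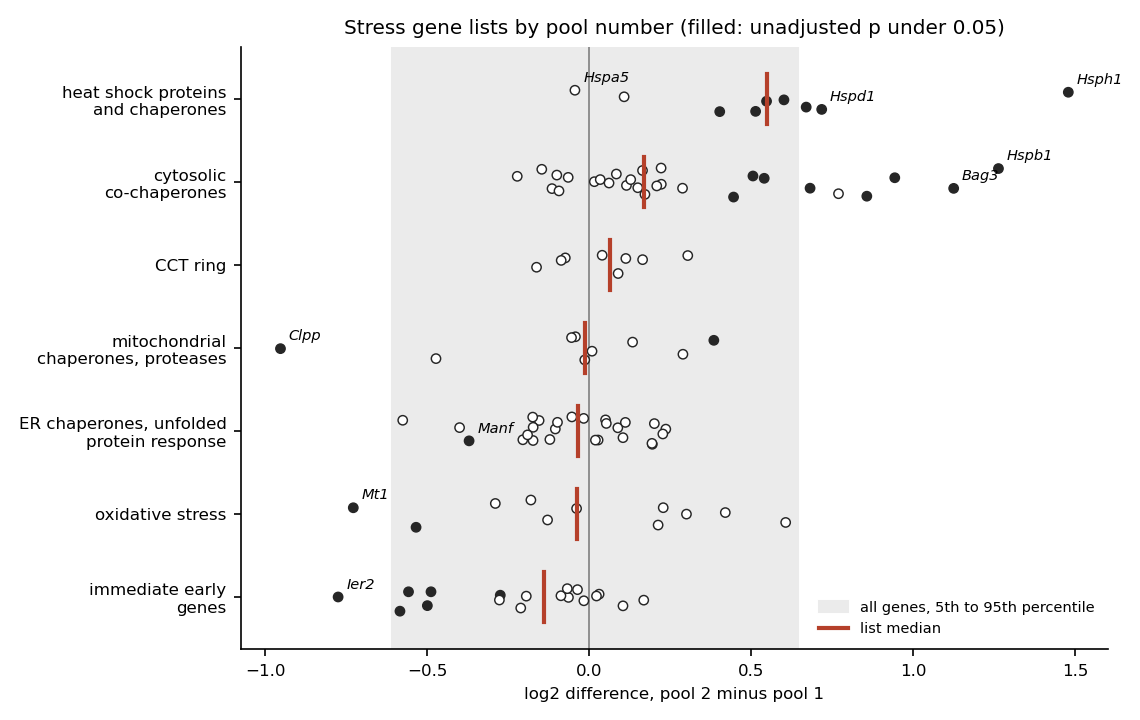
Each point is the log2 difference of pool 2 minus pool 1 (x axis) of 1 gene, in a row for each list (y axis), filled at an unadjusted limma p under 0.05, with the list's median as a bar and the middle 90% of all genes shaded. The 9 chaperone genes have a median of 0.55 and the immediate early genes one of -0.14, against -0.01 over all genes.

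Markers of other cells also differed between the pool numbers, and their part in the chaperone values was not tested. Fabp4, a fatty acid carrier of adipocytes and capillary endothelium, had 21409 ± 5424 in pool 2 and 8342 ± 1079 in pool 1 (SD, n = 4 each, log2 difference 1.33, limma adjusted p = 0.0321). Adipoq, the adipocyte hormone adiponectin and the other adipocyte gene tested, was dim, overlapped between the pools and was higher in pool 2 in 2 of 4 groups. The 7 endothelial genes summed to 2002.9 to 4187.6 in pool 2 and 1247.5 to 1746.6 in pool 1. Cldn5 (1152 ± 545 in pool 2, 460 ± 132 in pool 1) and Kdr (765 ± 294 in pool 2, 424 ± 63.9 in pool 1) had the smallest p. Pecam1 and Tek of the same list were higher in pool 2 in only 1 of 4 groups each (log2 differences -0.75, SE 0.61, and 0.01, SE 0.28). The 8 basal epithelial genes summed to 5526.4 to 8545.3 in pool 2 and 3930.3 to 4412.9 in pool 1, most of it from the contractile genes Acta2 (4840 ± 1341 in pool 2, 2966 ± 304 in pool 1) and Mylk. The keratin Krt14 of the same list was lower in pool 2 on all arrays (21.4 ± 14.6 in pool 2, 107 ± 22.1 in pool 1, SD, n = 4 each). Krt14 was dim, with array medians at 96.4 to 126.9. Of 12 macrophage genes, 11 had lower values in pool 2, with a median log2 difference of -0.15, and 3 were lower at an unadjusted p under 0.05, where 4.21% of all genes were, among them the complement genes C1qc and C1qa. The sums of macrophage, luminal epithelial, fibroblast and neutrophil markers overlapped between the pools. By direction alone, 10 of 12 luminal epithelial genes were lower in pool 2 (median log2 difference -0.34). Higher in pool 2 were 7 of 8 fibroblast genes (median 0.10) and 7 of 7 neutrophil genes (median 0.37). In bulk RNA of this kind, fewer cells of a type and less RNA per cell cannot be told apart.

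RNA quality was read from 2 control genes. For actin, the signal near the 3′ end over that near the 5′ end, a measure that grows as RNA is shortened, was 7.75 in pool 2 and 8.0 in pool 1 of the transgenic mice at 4 weeks, and 37.0 in pool 2 and 7.99 in pool 1 of the controls. After 48 hours it was 11.4 in pool 2 and 6.84 in pool 1 of the transgenic mice, and 13.9 in pool 2 and 11.3 in pool 1 of the controls. The same measure for Gapdh was higher in pool 2 in all 4 groups: 7.89 in pool 2 and 7.34 in pool 1 of the transgenic mice at 4 weeks, 12.1 in pool 2 and 6.97 in pool 1 of the controls, 7.54 in pool 2 and 7.15 in pool 1 of the transgenic mice after 48 hours, and 8.58 in pool 2 and 7.43 in pool 1 of the controls. With the actin ratio as a covariate Hsph1 differed by 1.73 on the log2 scale (limma adjusted p = 0.0232). Without control 4 weeks pool 2, the array with the highest ratios, it differed by 1.66. Leaving out that array removes the 4-week controls from the pool comparison, the group with the smallest Hsph1 fold (1.91). The value without that array therefore does not test RNA quality. The Gapdh ratio was not fitted as a covariate.

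**Figure D4:**
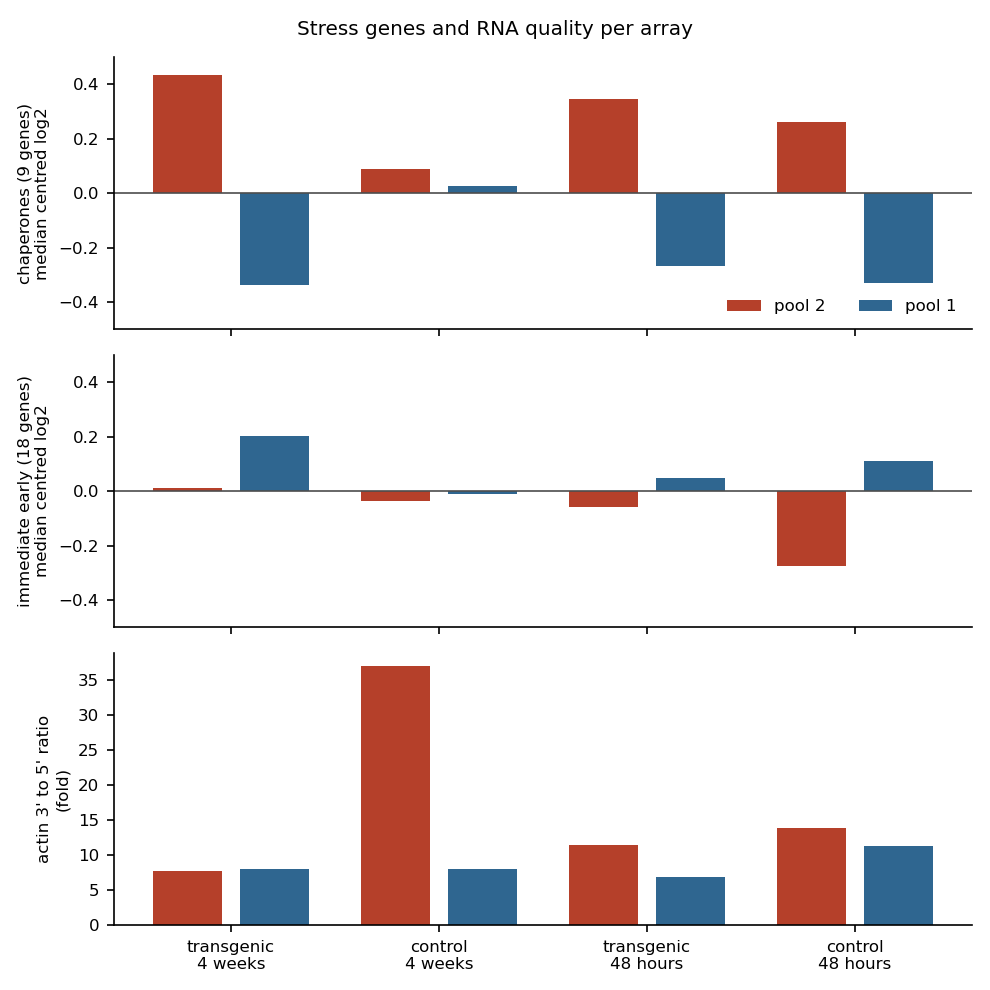
For each of the 8 arrays, bars show, from top to bottom, the median of the 9 chaperone genes and of the 18 immediate early genes (log2 values, each gene centred on its mean over all arrays) and the actin 3′ to 5′ ratio, by group and pool number. The chaperone median was 0.43 in pool 2 and -0.34 in pool 1 of the transgenic mice at 4 weeks, whereas in the 4-week controls it was 0.09 in pool 2 and 0.03 in pool 1.

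Between genotypes, the chaperones did not show a difference that passed the test. At 4 weeks, 0 of 9 genes were called by limma between transgenic and control mice, as were 0% of all genes (5.08% at an unadjusted p under 0.05, 0 of them among the 9). The log2 differences ran from -0.22 for Hspa1a to 0.55 for Hspd1, with a median of -0.11. Hspa5 was lower in both transgenic pools (46526.3 and 47452.8) than in both control pools (49816.2 and 55840.4), which was so for 17.2% of all genes. The 95% confidence interval of Hspa1a ran from 0.598- to 1.23-fold, and that of Hsph1 from 0.349- to 2.95-fold, so a 2-fold difference lies inside the second interval and outside the first. The fit behind these intervals has no pool term, so the pool difference of Hsph1 counts there as spread. With the pool number in the fit over both times, Hsph1 differed by genotype by 0.08 on the log2 scale (SE 0.15). Without transgenic 4 weeks pool 2, the array whose labels disagree, 0 of 9 were called and the median was -0.47.

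At 48 hours, again 0 of 9 genes were called by limma (0% of all genes, and 4.07% at an unadjusted p under 0.05, 0 of them among the 9). Log2 differences ran from -0.33 for Hspa1b to 0.50 for Hspe1, with a median of 0.08. Hspa8 was lower in both transgenic pools (76256.7 and 68979.7) than in both control pools (78285.6 and 84781.2), as were 16.1% of all genes. Luminal epithelial markers, 13 genes with a probe set, summed to 20284.7 and 18703.9 in the transgenic pools at this time, against 5537.7 and 5022.4 in the control pools, and 8 of the 12 tested were higher at an unadjusted p under 0.05 (median log2 difference 1.66, 0 called by limma). Their part in the chaperone values was not tested. The interaction test, of the genotype difference at 4 weeks against that at 48 hours, called none of the 9 genes (0 called, 0% of all genes, 4.74% at an unadjusted p under 0.05).

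Hspd1 came nearest to a genotype difference. Over both times, with time in the fit, its log2 difference was 0.51 (SE 0.26, limma adjusted p = 0.957), a 1.42-fold difference with a 95% confidence interval of 0.961- to 2.10-fold, and transgenic exceeded control in 4 of 4 comparisons of arrays with the same time and pool number. No gene of the 9 was called in that fit (0% of all genes, 4.58% at an unadjusted p under 0.05). Hspe1, the partner of Hspd1, differed by 0.33 (SE 0.25) and was higher in 3 of 4 such comparisons, and Hsph1 differed by 0.08 (SE 0.47). Hspa1a and Hspa8 went the other way, higher in 0 of 4. The share of all genes with such counts was not computed, and the labels do not say what arrays with the same pool number share. Markers of other cells also had values that differed with genotype. Over both times, 10 of 12 luminal epithelial markers were higher in transgenic mice (median log2 difference 0.49), as were 8 of 8 fibroblast markers (median 0.35), while 7 of 7 neutrophil markers were lower (median -0.68), with 0 genes of these lists called by limma. The 8 neutrophil markers with a probe set summed to 8203.7 to 10081.2 in transgenic and 11192.8 to 23621.1 in control pools. Their part in these values was not tested.

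With time, 0 of 9 genes were called at 4 weeks against 48 hours in transgenic mice (0% of all genes, 2.19% at an unadjusted p under 0.05) and 0 of 9 in controls (0.00767% of all genes, 1 gene, and 6.16% at an unadjusted p under 0.05), with 0 of the 9 at an unadjusted p under 0.05 in either. The medians were -0.00 in transgenic and 0.16 in control mice on the log2 scale. Hspa5 was higher in both 4-week control pools (49816.2 and 55840.4) than in both 48-hour control pools (44551.6 and 47353.2), as were 18% of all genes. In the same comparison 8 of 12 luminal epithelial markers were higher at 4 weeks at an unadjusted p under 0.05 (median log2 difference 1.56, 0 called by limma), with sums of 11236.1 and 21560.5 at 4 weeks and 5537.7 and 5022.4 at 48 hours. Their part was not tested. A test of any difference among the 4 groups called 0 of 9 (0% of all genes, 3.96% at an unadjusted p under 0.05). For Hsph1 the SD of the 4 group means was 0.098 on the log2 scale, against a within-group SD of 1.07, and for Hspa5 these were 0.087 and 0.076.

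The genes whose pattern over the 8 arrays was most like that of Hspa1a were looked up by the root mean square difference of centred log2 values. They were Acvr1b (0.0745), Cnksr3 (0.0845), Zfand3 (0.0896), Vav3 (0.0908) and Lrch1 (0.0909), where Hspa1a itself varied by 0.230 about its mean. Among the chaperones Dnajb1 came nearest, at rank 49 of all genes, followed by Hsp90aa1 at rank 99 and Hspa8 at rank 220. The probe set used for Hspa1b, the neighbouring copy, stood at rank 3461, and Hsph1, with its wider swings, at rank 9291. The other Hspa1b probe sets were nearly as bright and, like Hspa1a, higher in pool 2 in all 4 groups. They were not ranked, so the rank of Hspa1b describes 1 probe set and not the gene.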

How the data were processed

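The intensity values deposited by the authors are linear MAS5 signals, per the submitters' processing notes (version not stated there). The trimmed mean, without the lowest and highest 2%, is 500 on every array. Of 45101 probe sets, 34945 carry 1 gene symbol in the platform annotation and 932 several, which were left out. From these, log2(signal + 30.8) was computed, 30.8 being the 25th percentile of all values, so differences of dim genes are understated. Genes needed a signal above the array's median on 2 or more arrays, which left 13041.

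limma 3.58.1 in R 4.3.3 (lmFit, eBayes with a trend) was fitted to all 8 arrays with the 4 groups as terms and, for the pool numbers, with the number as a further term. P-values are two-sided with Benjamini-Hochberg adjustment over all 13041 genes, and a call is an adjusted p under 0.05. The tests were tested on simulated data. Members and gene lists were chosen with earlier results of these data known. Named genes are the 10 members, up to 4 genes with the smallest p of each list in a comparison, and the 5 most like Hspa1a. A few further cell markers are named as checks. Other normalization, offsets, filters, probe sets, variance trend, blocks and left-out arrays were tried as alternatives. Plots used matplotlib 3.10.9 under Python 3.11.15.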

Additional observations from a re-analysis of the deposited data

How the results depend on the processing

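Of 434 alternative values of 24 counts and medians, 381 stayed within the range of the replicate spread or within 1.5 times the count. Genes called by pool number, 2 in the analysis reported, numbered 7 with the offset at the median of all values, 0 with no filter on low values, 0 with a filter at the 75th percentile, 6 with the probe set of highest mean log2 value, 0 with no trend in the prior variance and 12 with the actin ratio as a covariate, and 0 to 10 when 1 array was left out. Chaperone genes called numbered 0 with no filter, 0 with the stricter filter, 0 with no trend, and 0 to 1 with 1 array left out, against 1 reported; those at an unadjusted p under 0.05 numbered 4 with no trend and 6 to 7 with 1 array left out, against 7. Hsph1's adjusted p was 0.061 with no filter, 0.0528 with the stricter filter and 0.585 with no trend.

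For genotype and time, 0 chaperone genes were called under every alternative run. Over all genes, those called numbered 1 at 48 hours and 1 at 4 weeks when only the arrays of that time were fitted. Leaving out 1 array gave 0 to 1 at 48 hours, at 4 weeks, for their difference, for time in transgenic mice and over both times, 0 to 7 for time in controls and 0 to 2 for any difference among groups. Time in controls, 1 gene in the analysis reported, gave 0 with the stricter filter, 0 with no trend and 7 with the actin ratio. The chaperone median ran from -0.47 to 0.32 for genotype at 4 weeks and from -0.35 to 0.40 for time in transgenic mice with 1 array left out. No called value changed direction; among uncalled values of single genes, 12 of 171 changed sign at 4 weeks, 15 of 171 at 48 hours and 1 of 153 by pool number.

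The labels do not say whether arrays of 1 pool number belong together. Over all genes, correlations of pool differences between groups lay from -0.09 to 0.13 over 6 pairs of groups, so the number was not taken as a pairing of the arrays, although Hsph1 and Fabp4 were called by it. With the pool number as a replicate block, genes called numbered 2 for genotype at 4 weeks, 4 for time in controls and 3 for any difference among groups. By genotype over both times in that fit, Hspd1 had a log2 difference of 0.51 (SE 0.14, limma adjusted p = 0.906). Hsph1 had one of 0.08 (SE 0.15, limma adjusted p = 0.957). The values have no detection calls, so signal over background was not available as a limit; the 2 pools a group limit the precision.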

Other observations

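The CCT ring had higher values in transgenic mice. Its 8 subunits summed to 66905.9 to 70757.1 on the 4 transgenic arrays and 53777 to 60036 on the 4 control arrays, with no overlap. All 8 log2 differences over both times were positive, with a median of 0.26 against 0.00 over all genes, but 0 were called by limma (adjusted p = 0.957 for the subunit with the smallest p, Cct6a, log2 difference 0.57, SE 0.16), and 2 of 8, Cct6a and Tcp1, had an unadjusted p under 0.05, where 4.58% of all genes did. Among the 28 measured genes of the heat shock factor and co-chaperone list, 24 were positive in the same comparison with a median of 0.18, and 0 were called. At an unadjusted p under 0.05, 2 of the 28 were higher, where 4.58% of all genes passed in either direction. They were Serpinh1, the collagen chaperone Hsp47, which differed by 0.79 (SE 0.27), and Hspa13, which differed by 0.50 (SE 0.21). In the same comparison 8 of 8 fibroblast markers and 10 of 12 luminal epithelial markers were positive (medians 0.35 and 0.49) and 0 of 7 neutrophil markers were (median -0.68). The part of these cells in the CCT and co-chaperone values was not tested.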
